A study of Mus musculus with 16 samples.

Results

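The genes described here are the core genes of MHC class II antigen presentation, followed in the spinal cord of mice after spinal cord injury (SCI) with and without atorvastatin. They were chosen by gene symbol, as the rows of the count and TPM tables named Cd74, H2-Aa, H2-Ab1, H2-Eb1, H2-DMa, H2-DMb1 and Ciita, and all 7 were found among the 24411 genes of the tables. RNA sequencing was done on 16 female C57BL/6J mice with no engineered allele, and those injured were 12 weeks old at surgery. In the SCI + Vehicle group (7 mice) and the SCI + Atorvastatin group (7 mice), the mid-thoracic cord was compressed from the side to 0.25 mm. Treatment began 2 weeks after injury and was given daily for 4 weeks, either as atorvastatin at 10 mg/kg, a cholesterol-lowering HMG-CoA reductase inhibitor, or as its DMSO, PEG and Tween vehicle alone. The Uninjured Control group (2 mice) had no injury and is labelled with no treatment and an age of 12 weeks at the start. By the study's methods these mice were older than that at isolation, but younger than the injured mice were by then. Injury and age therefore cannot be told apart in comparisons with them. There was no uninjured group on atorvastatin. RNA came from 1 piece of cord of 5 mm per mouse, taken about 6 weeks after injury at the lesion or at the matching level, so each value is a mixture of all cells in that piece.

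Class II molecules are pairs of an alpha and a beta chain that show peptides from engulfed proteins to CD4+ T cells. In the cord they are carried mainly by activated microglia, border-associated macrophages and immune cells that enter from the blood. Ciita is the master switch of the pathway. It does not bind DNA itself but is recruited by RFX, CREB and NF-Y, which sit on the X and Y boxes of class II promoters, and its own induction by interferon-gamma is known to be lowered by statins in cultured cells. The comparison of SCI + Atorvastatin with SCI + Vehicle asks whether that is seen in the injured cord.

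Sequences of 300 bases around the start of 4 of the 7 genes (H2-Aa, H2-Eb1, H2-DMa and H2-DMb1) were taken from RefSeq on GRCm38.p6, running from 250 bases before the start to 50 bases after it. Windows of Cd74, H2-Ab1 and Ciita were not used here. Windows of H2-Aa, H2-Eb1 and H2-DMb1 are shown to see which of the X and Y box letters they hold. Any link between these letters and the later correlations was not tested. The capitals mark the Y box core (CCAAT, or ATTGG on the other strand), an X box form of 11 bases (AG, then 2 free bases, AC, 3 free bases and TG) and the palindromic CREB form TGACGTCA. The H2-Aa window is chr17:34287774-34288073 on the minus strand, the H2-Eb1 window chr17:34305617-34305916 on the plus strand and the H2-DMb1 window chr17:34152941-34153240 on the plus strand.
H2-Aa: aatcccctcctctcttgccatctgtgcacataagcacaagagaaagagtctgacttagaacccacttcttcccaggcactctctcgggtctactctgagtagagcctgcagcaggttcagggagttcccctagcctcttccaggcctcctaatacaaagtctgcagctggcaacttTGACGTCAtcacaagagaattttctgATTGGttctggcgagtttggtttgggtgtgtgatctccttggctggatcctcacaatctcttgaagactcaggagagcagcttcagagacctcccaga
H2-Eb1: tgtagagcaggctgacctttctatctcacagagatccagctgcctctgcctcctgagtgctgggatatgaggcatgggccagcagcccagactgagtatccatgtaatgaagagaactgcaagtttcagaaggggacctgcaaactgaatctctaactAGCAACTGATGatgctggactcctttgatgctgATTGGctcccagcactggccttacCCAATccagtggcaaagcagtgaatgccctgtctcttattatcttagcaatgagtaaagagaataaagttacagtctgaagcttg
H2-DMb1: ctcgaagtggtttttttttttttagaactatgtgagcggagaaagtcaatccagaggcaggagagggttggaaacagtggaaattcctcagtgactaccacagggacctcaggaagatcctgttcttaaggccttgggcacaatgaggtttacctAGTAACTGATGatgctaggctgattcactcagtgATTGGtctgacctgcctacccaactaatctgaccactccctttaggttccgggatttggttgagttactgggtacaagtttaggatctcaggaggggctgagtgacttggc

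The windows of H2-Eb1 and H2-DMb1 each held the X box form followed by an ATTGG, with 22 and 23 bases between them. In H2-Eb1 the X box form began 92 bases and in H2-DMb1 95 bases before the start, and H2-Eb1 had a second Y box core closer to the start. The H2-Aa window held 1 Y box core, 48 bases before the start, and the CREB form 74 bases before it, but not this X box form. Of the 2 windows listed for H2-DMa, the first (chr17:34122582-34122881) held none of the letters and the second (chr17:34125268-34125567) held 1 Y box core. These letters are common. Both strands were searched in 32851 promoter windows, of which 37.4% held the Y box core, 14.8% the X box form, 5.87% both and 1.79% the CREB form. A match describes the letters and not a site in use.

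The H2 genes lie close together on chromosome 17 of GRCm38, with H2-Ab1 at 34257689 to 34269419, H2-Aa at 34282744 to 34287823 and H2-Eb1 at 34305867 to 34316674. H2-DMa (34119541 to 34139101) and H2-DMb1 (34153072 to 34160230) lie to one side of them, while Cd74 is on chromosome 18 (60803848 to 60812652) and Ciita on chromosome 16 (10480059 to 10528418). Some of these genes share ground with others, which matters because the sources used here do not state whether reads were counted by strand. Ciita overlaps Dexi, on the opposite strand, over 25888 bases, of which 329 are exonic in both. H2-DMa overlaps Brd2, also on the opposite strand, over 3094 bases with 360 exonic in both. H2-DMb1 has a near-identical neighbour, H2-DMb2 (34143307 to 34151555), so the split of reads between this pair is uncertain.

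Libraries held 14823292 to 25579826 counts on genes. All 8 defining markers of spinal cord neurons and glia were counted in every group. The 2 Uninjured Control libraries stood apart from the rest. They had a count of 0 in 13.9% and 17.6% of the genes that averaged 200 to 500 counts in the SCI mice, against at most 0.247% in any SCI mouse. They also carried 6 of 6 liver markers, at a summed level of 621 CPM in one and 3957 CPM in the other (CPM are counts scaled to the library size), compared with no more than 6.44 CPM in any SCI mouse. The part of these features in the results was not tested. Folds against each control mouse alone are therefore also given for Cd74 and Ciita, and for H2-Ab1 against the first control only. The other log2 fold changes pool both controls, so they do not show how far each control alone differs from the SCI mice.

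In the injured cord, Cd74, the invariant chain that holds class II molecules until they meet peptide, was by far the most abundant of the 7. On the TPM scale, which is per length and so allows genes to be compared, Cd74 averaged 158 ± 66.9 (SD, n = 14) over the SCI mice. The classical chains followed, with 65.1 for the beta chain H2-Ab1, 55.1 for its alpha partner H2-Aa and 30 TPM for the beta chain H2-Eb1. The DM chains, which help load peptide inside the cell, were lower at 16.1 for H2-DMb1 and 11.9 TPM for H2-DMa, and Ciita was lowest at 1.82 TPM. Cd74 exceeded H2-Ab1 in 14 of 14 mice, H2-Aa exceeded H2-Eb1 in 13, H2-DMb1 exceeded H2-DMa in 12 and H2-DMa exceeded Ciita in 14. The neighbours H2-Ab1 and H2-Aa (11 of 14 mice) and H2-Eb1 and H2-DMb1 (10 of 14) were less cleanly ordered, and their ranges overlapped widely. Summed over the 7 genes, the TPM level was 351.98 ± 114 (SD, n = 7) in SCI + Atorvastatin and 324 ± 165 (SD, n = 7) in SCI + Vehicle, compared with 68.7 and 62.9 in the 2 controls. Cd74 made up 40.9% to 52.2% of that sum in the SCI mice and 21.8% and 27.5% in the controls.

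**Figure D1:**
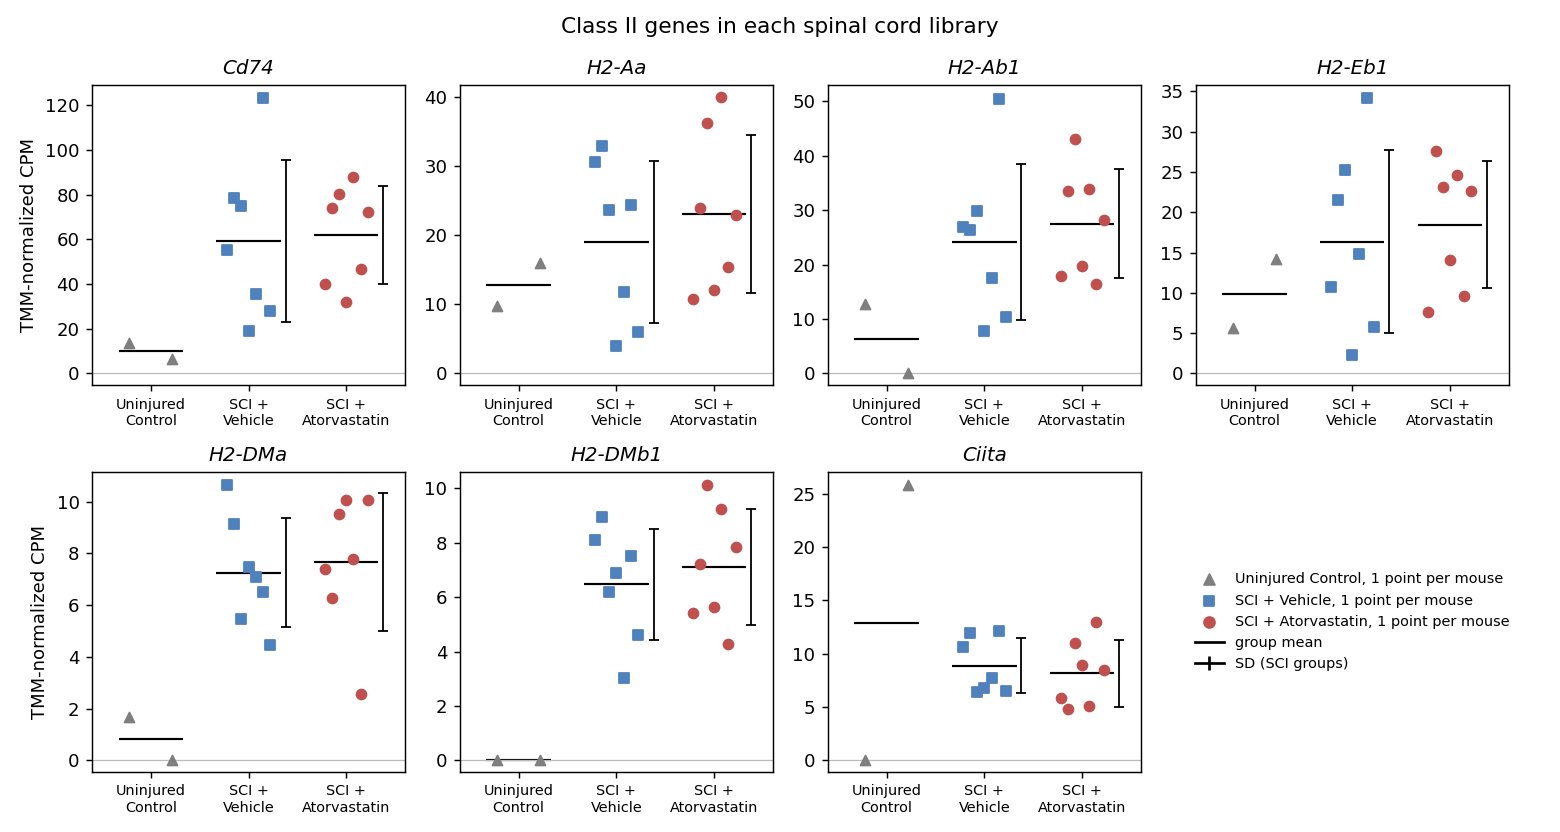
TMM-normalized CPM (y axis, linear) of each of the 7 class II genes, with 1 point per mouse, the group mean as a line and the SD as a bar for the SCI groups. Cd74, H2-DMa and H2-DMb1 lay above both Uninjured Control mice in every SCI mouse. For Ciita, H2-Ab1 and H2-DMa, 1 control was at 0 and the other was not.

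Compared with the Uninjured Control group, 2 of the 7 genes, Cd74 and H2-DMb1, were higher in SCI + Vehicle mice and the same 2 in SCI + Atorvastatin mice. The call required an absolute log2 fold change above 0.322, that is 25%, and a Benjamini-Hochberg adjusted p below 0.05 in edgeR's quasi-likelihood test over 16091 genes. By that rule 29.8% of all genes tested were called in SCI + Vehicle (19.9% higher and 9.91% lower) and 38.9% in SCI + Atorvastatin (24.9% higher and 14% lower). A share of 2 in 7 is thus near what genes in general showed. The median log2 fold change of the 7 genes was 1.92 for SCI + Vehicle and 2.11 for the atorvastatin mice, beside 0.172 and 0.206 over all genes. That median is the value of H2-Ab1, which was not called and had 0 counts in the second control. Against the first control alone, the mean H2-Ab1 level was 1.89-fold in SCI + Vehicle and 2.15-fold in SCI + Atorvastatin. Both comparisons use the same 2 control mice, so they are not independent of each other.

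Cd74 was counted 276 to 2949 times in the SCI mice and 274 and 147 times in the controls. In CPM it ran from 18.8 over a median of 55.4 to 123 in SCI + Vehicle, from 31.9 over 72.4 to 87.9 in SCI + Atorvastatin, and stood at 13.8 and 6.66 in the controls. All 14 SCI mice were above both controls, although the lowest vehicle mouse came near the higher control. Its log2 fold change was 2.53 for SCI + Vehicle (SE 0.72, adjusted p = 0.0226) and 2.61 for SCI + Atorvastatin (SE 0.48, adjusted p = 0.00184). Set against each control alone, the mean vehicle level was 4.31-fold and 8.89-fold, and the mean atorvastatin level 4.50-fold and 9.30-fold, that of the control. Cd74 was no longer called in SCI + Vehicle when the second control mouse was left out (adjusted p = 0.0506).

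H2-DMb1 had 69 to 238 counts in every SCI mouse and 0 in both controls. Its CPM ran from 3.03 over 6.87 to 8.95 in SCI + Vehicle and from 4.28 over 7.23 to 10.1 in SCI + Atorvastatin. Taking 3 counts per library as the most that a count of 0 allows, it was at least 43.0-fold higher in SCI + Vehicle (adjusted p = 0.000329) and at least 47.2-fold higher in SCI + Atorvastatin (adjusted p = 8.28e-05). This limit covers counting error only. H2-DMb1 passed the expression filter only through the SCI mice, so higher was the only direction open to it. Its partner chain H2-DMa had 33 and 0 counts in the controls and 53 to 253 in the SCI mice, with all 14 SCI mice above both controls. Its log2 fold changes of 3.13 (SE 1.22, adjusted p = 0.0773) and 3.22 (SE 1.24, adjusted p = 0.0644) did not pass the test. With DESeq2, the tool of the study, H2-DMa was called in both comparisons.

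The classical chains did not pass in either comparison. H2-Ab1 had 255 counts in one control and 0 in the other, and CPM of 7.83 to 50.5 in SCI + Vehicle (median 26.3) and 16.5 to 43.1 in SCI + Atorvastatin (median 28.1). All 7 atorvastatin mice and 5 of 7 vehicle mice lay above the higher control at 12.8 CPM. The log2 fold changes were 1.92 (SE 1.29, adjusted p = 0.293) and 2.11 (SE 1.2, adjusted p = 0.194). Its alpha partner H2-Aa stood at 9.74 and 15.9 CPM in the controls, inside the range of the vehicle mice (3.95 over 23.7 to 32.9), and 4 of 7 mice in each SCI group exceeded both controls. H2-Aa differed from the controls by a log2 fold change of 0.57 (SE 0.75, adjusted p = 0.610) in SCI + Vehicle and 0.85 (SE 0.53, adjusted p = 0.234) in SCI + Atorvastatin. H2-Eb1 behaved alike, with 5.62 and 14.2 CPM in the controls, 2.25 over 14.8 to 34.2 in SCI + Vehicle and 7.63 over 22.6 to 27.5 in SCI + Atorvastatin. Its log2 fold changes were 0.71 (SE 0.84, adjusted p = 0.567) and 0.91 (SE 0.56, adjusted p = 0.232). For H2-Eb1 the deposited units disagreed, as the control with 112 counts was listed at a TPM of 0.

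Ciita was the least settled of the 7. The controls held 0 and 569 counts, the SCI + Vehicle mice 100 to 290 and the SCI + Atorvastatin mice 106 to 267, so every SCI mouse lay between the 2 controls. The log2 fold change of Ciita was -0.56 for SCI + Vehicle (SE 1.17, adjusted p = 0.761) and -0.65 for SCI + Atorvastatin (SE 1.19, adjusted p = 0.706). Against the first control alone, Ciita was at least 59.0-fold higher in SCI + Vehicle and at least 54.1-fold higher in SCI + Atorvastatin, while against the second it was 0.345 and 0.316 times the control. The direction of Ciita after injury is therefore set by which control mouse is used. Dexi, which overlaps Ciita, stood at 47.8 and 18.0 CPM in the same 2 controls, the opposite order, and at 14.03 to 29.4 CPM in the SCI mice.

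Leaving out the first control mouse gave 5 genes in both comparisons, with Cd74, H2-Ab1, H2-DMa and H2-DMb1 higher and Ciita lower. Without the second control, 3 genes were called in SCI + Vehicle (Ciita, H2-DMa and H2-DMb1) and 6 in SCI + Atorvastatin (all but H2-Aa), each of them higher. In these fits the 1 remaining control was assumed to vary like the SCI mice. Of the 7 genes, 3 lay above both controls in every SCI + Vehicle mouse (24.8% of all genes did) and 4 in every SCI + Atorvastatin mouse (29.8% of all genes).

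Cell markers moved beside these values. The 8 microglia or macrophage markers summed to 128 and 214 CPM in the controls, 878 to 1190 in SCI + Vehicle and 1022 to 1389 in SCI + Atorvastatin. Markers of monocytes (5 genes), B cells (5 genes) and T cells (7 genes) were all at 0 in both controls, and in the SCI mice they summed to 5.04 to 27.7, 0 to 8.11 and 1.70 to 20.7 CPM. The control libraries also had a count of 0 in 13.9% and 17.6% of the genes that averaged 200 to 500 counts in the SCI mice. Zeros of such low-level markers in the controls therefore do not show that these cells were absent. The 7 border-associated macrophage markers summed to 16.4 and 19.9 CPM in the controls, with Cbr2, F13a1 and Ms4a7 at 0, and to 24.3 to 108 CPM in the SCI mice. The 8 dendritic cell markers summed to 35.4 and 60.9 CPM in the controls, with Itgax, Cd209a, Xcr1, Ccr7 and Batf3 at 0, and to 55.8 to 103 CPM in the SCI mice. Dendritic cell markers did not all rise. Of the 5 tested, 2 in SCI + Vehicle and 3 in SCI + Atorvastatin had a log2 fold change above 0. Zbtb46 was called lower in SCI + Vehicle (-1.34, SE 0.43, edgeR adjusted p = 0.0364), while Itgax averaged 49.4 CPM there. Of the 7 border-associated macrophage markers, 5 and 6 had a log2 fold change above 0 in the same comparisons. More class II cells and more class II RNA per cell cannot be told apart in such tissue, and the part of the markers in the result was not tested.

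Between the treatments, no class II gene was found to differ. At the limit set for this comparison, an unadjusted p below 0.001 with the same fold limit, 0 of the 7 were called (0.106% of all genes were, 0.087% higher and 0.0186% lower), and 0 of 7 had an unadjusted p below 0.05 (7.03% of all genes did). No gene of the 16091 passed at an adjusted p below 0.05, and DESeq2, limma on log2(TPM + 1) and voom also called 0 of the 7. The log2 fold change was above 0 for 6 of the 7, as it was for 48.7% of all genes, with a median of 0.14 beside -0.001 over all genes.

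For Cd74 the group means were 61.9 ± 21.9 CPM (SD, n = 7) in SCI + Atorvastatin and 59.2 ± 36.3 CPM (SD, n = 7) in SCI + Vehicle. The log2 fold change was 0.06 (95% confidence interval -0.59 to 0.71), and 4 of 7 mice on atorvastatin exceeded the median of the vehicle mice. H2-Aa averaged 23.0 ± 11.4 CPM (SD, n = 7) on atorvastatin and 19.0 ± 11.8 CPM (SD, n = 7) on vehicle, a log2 difference of 0.27 (-0.53 to 1.07). For H2-Ab1 the means were 27.5 ± 9.95 and 24.1 ± 14.4 CPM (SD, n = 7 each), with a log2 difference of 0.19 (-0.46 to 0.83). The group ranges of all 3 overlapped. H2-Eb1, at 18.4 ± 7.91 and 16.3 ± 11.3 CPM (SD, n = 7 each), gave 0.17 (-0.67 to 1.01).

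The DM chains and Ciita gave narrower intervals. H2-DMa stood at 7.67 ± 2.68 CPM on atorvastatin and 7.25 ± 2.10 CPM on vehicle (SD, n = 7 each), a log2 difference of 0.08 (-0.47 to 0.63). H2-DMb1 stood at 7.11 ± 2.13 and 6.47 ± 2.06 CPM (SD, n = 7 each), a difference of 0.14 (-0.39 to 0.66). Ciita was the only one of the 7 with a lower mean on atorvastatin, at 8.15 ± 3.11 CPM against 8.88 ± 2.6 CPM (SD, n = 7 each). Its log2 difference of -0.13 (-0.64 to 0.39, unadjusted p = 0.611) was smaller than the spread between mice, although 4 of 7 mice on the drug exceeded the median of the vehicle mice. These intervals leave room for changes of moderate size in either direction, so the 2 treatments are not shown to be alike.

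**Figure D2:**
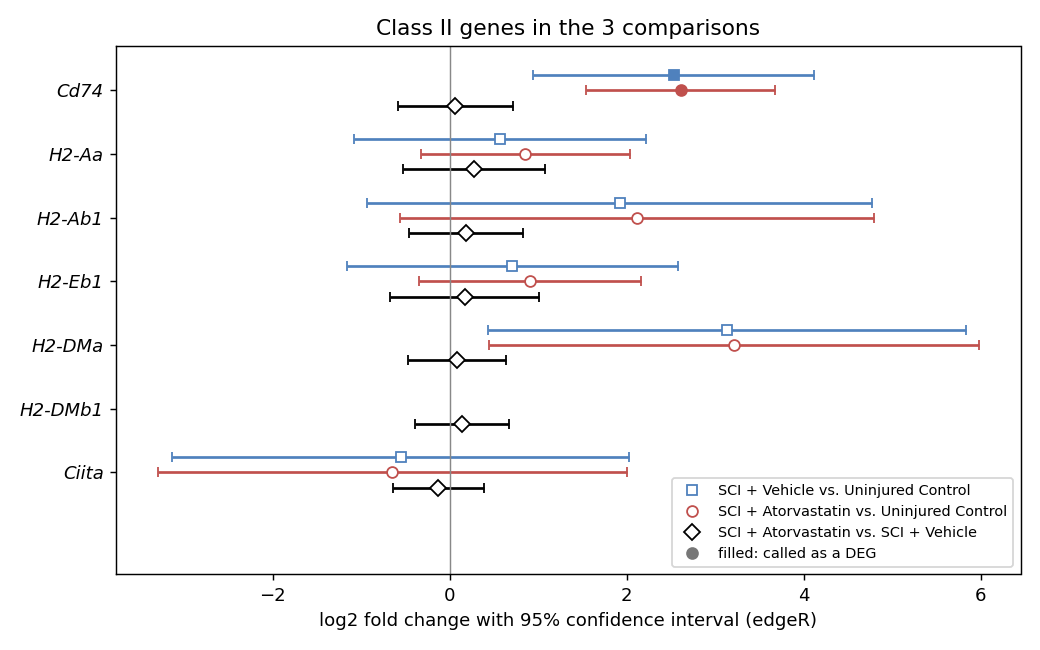
Log2 fold change (x axis) with its 95% confidence interval for each class II gene in the 3 comparisons, from edgeR, with filled symbols for called genes; H2-DMb1 against the controls is left out because both controls were at 0. The intervals between the treatments all span 0, and those against the 2 controls are several times wider for H2-Ab1, H2-DMa and Ciita.

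The spread between mice was large for the abundant genes. Within SCI + Vehicle the highest mouse exceeded the lowest by 6.56-fold for Cd74, 8.34-fold for H2-Aa, 6.45-fold for H2-Ab1 and 15.2-fold for H2-Eb1 in CPM. Within SCI + Atorvastatin the same ratios were 2.76, 3.73, 2.62 and 3.61. The lowest vehicle value of each of these 4 genes came from SCI + Vehicle replicate 4, the shallowest library, and SCI + Vehicle replicate 7 was the next lowest. The difference in spread between the groups was not tested. For H2-DMa the wider group was SCI + Atorvastatin, with a ratio of 3.91 against 2.39 in SCI + Vehicle, and for H2-DMb1 the ratios were 2.37 and 2.95.

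Across the 14 SCI mice, Cd74, H2-Ab1, H2-Aa and H2-Eb1 varied together. The 6 pairs among these 4 genes had Pearson r of 0.855 to 0.948 in log2 CPM. Cd74 with H2-Ab1 gave r = 0.948 and Spearman rho = 0.908, with an adjusted permutation p of 7.5e-05 for r. Without the 2 mice farthest from the median of Cd74, r was 0.90, and within the groups it was 0.866 in SCI + Atorvastatin and 0.978 in SCI + Vehicle. All 6 pairs had an adjusted permutation p below 0.05 for r and for rho. The pairs were computed after the values had been seen, 15 in number and adjusted together, and the points share library preparation and sequencing.

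The DM chains followed less closely. H2-DMb1 gave r = 0.580 with Cd74 (rho = 0.705, adjusted permutation p 0.0528 for r and 0.0112 for rho), and r = 0.609 with H2-Aa (rho = 0.824, adjusted permutation p 0.0447 and 0.00132). With H2-Ab1 it gave r = 0.572 (rho = 0.701, adjusted permutation p 0.0536 and 0.0112). With H2-Eb1 it gave r = 0.365 (rho = 0.477, adjusted permutation p 0.272 and 0.119). Within SCI + Atorvastatin these r ran from 0.820 to 0.955, and within SCI + Vehicle from 0.131 to 0.464. H2-DMa gave r = 0.144 with Cd74 (rho = 0.0769, adjusted permutation p 0.629 and 0.854). With its own partner H2-DMb1, H2-DMa gave r = 0.547 (rho = 0.596, adjusted permutation p 0.0664 and 0.0411), and without the 2 farthest mice r was 0.334.

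**Figure D3:**
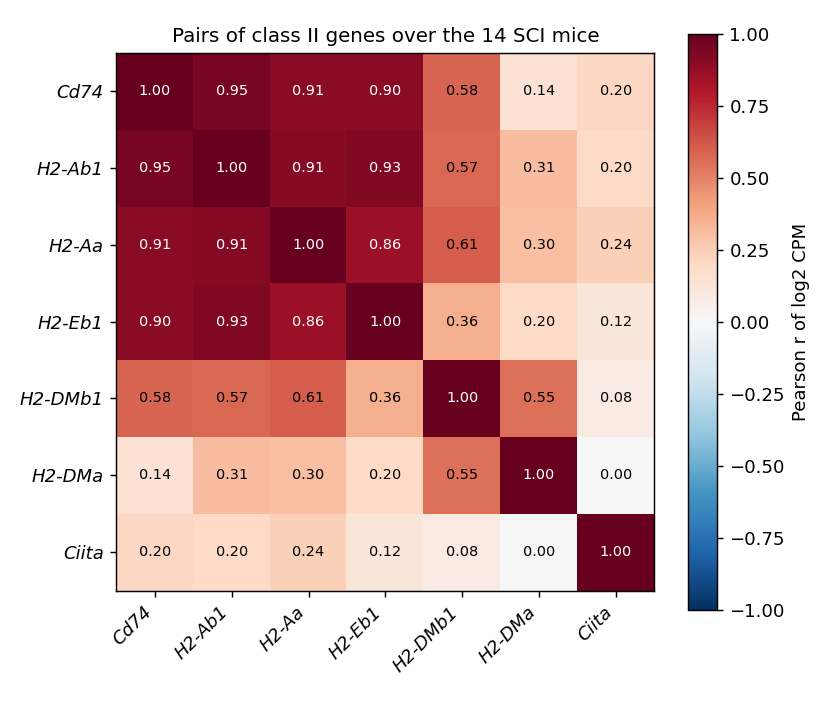
Pearson r of log2 CPM for each pair of the 7 class II genes over the 14 SCI mice, coloured from -1 (blue) to 1 (red). Cd74, H2-Ab1, H2-Aa and H2-Eb1 form a block of high values (0.855 to 0.948), and Ciita has an r of 0.239 or less with every other gene.

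No relation of Ciita with the class II genes passed the test over the 14 SCI mice. Its r was 0.204 with Cd74 (rho = 0.165), 0.239 with H2-Aa (rho = 0.204), 0.201 with H2-Ab1 (rho = 0.0154) and 0.123 with H2-Eb1 (rho = -0.0462). With H2-DMb1 it was 0.0849 (rho = 0.108) and with H2-DMa 0.000458 (rho = 0.178). The adjusted permutation p over 12 relations ran from 0.651 to 0.999 for r and from 0.761 to 0.964 for rho. Without the 2 mice farthest from the median of Ciita, r was 0.556 with Cd74 (unadjusted permutation p = 0.0610) and 0.631 with H2-Aa (0.0283). Within SCI + Vehicle all 6 values were positive, from 0.537 to 0.710, and within SCI + Atorvastatin all 6 were negative, from -0.298 to -0.158, none with an exact permutation p below 0.05. The difference between the groups was not tested. The measure of Ciita is itself less steady than that of other genes. The ratio of its TPM to its CPM varied 8.15-fold over the SCI mice, more than in 99.9% of 11022 genes with at least 100 counts in every SCI mouse, where the median was 1.31-fold.

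Cd74 moved with microglia or macrophage markers. Its r with the mean of the 8 markers was 0.810 (rho = 0.916, adjusted permutation p 0.00468 for r and 0.00036 for rho), 0.669 without the 2 farthest mice, 0.775 within SCI + Atorvastatin and 0.947 within SCI + Vehicle. With the border-associated macrophage markers r was 0.688 (rho = 0.547, adjusted permutation p 0.0316 and 0.141) but 0.233 without the 2 farthest mice, so this relation rests on those mice. The other lists gave r of 0.594 for B cell, 0.574 for T cell and 0.424 for dendritic cell markers and 0.582 for genes of interferon-gamma induction (rho = 0.582, 0.503, 0.231 and 0.574). Their adjusted permutation p ran from 0.0766 to 0.254 for r and from 0.138 to 0.761 for rho, and without the 2 farthest mice r was 0.322, 0.316, -0.251 and 0.497. Of the 12 relations with Ciita and with the lists, 2 passed at an adjusted p below 0.05 for r and 1 for rho.

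**Figure D4:**
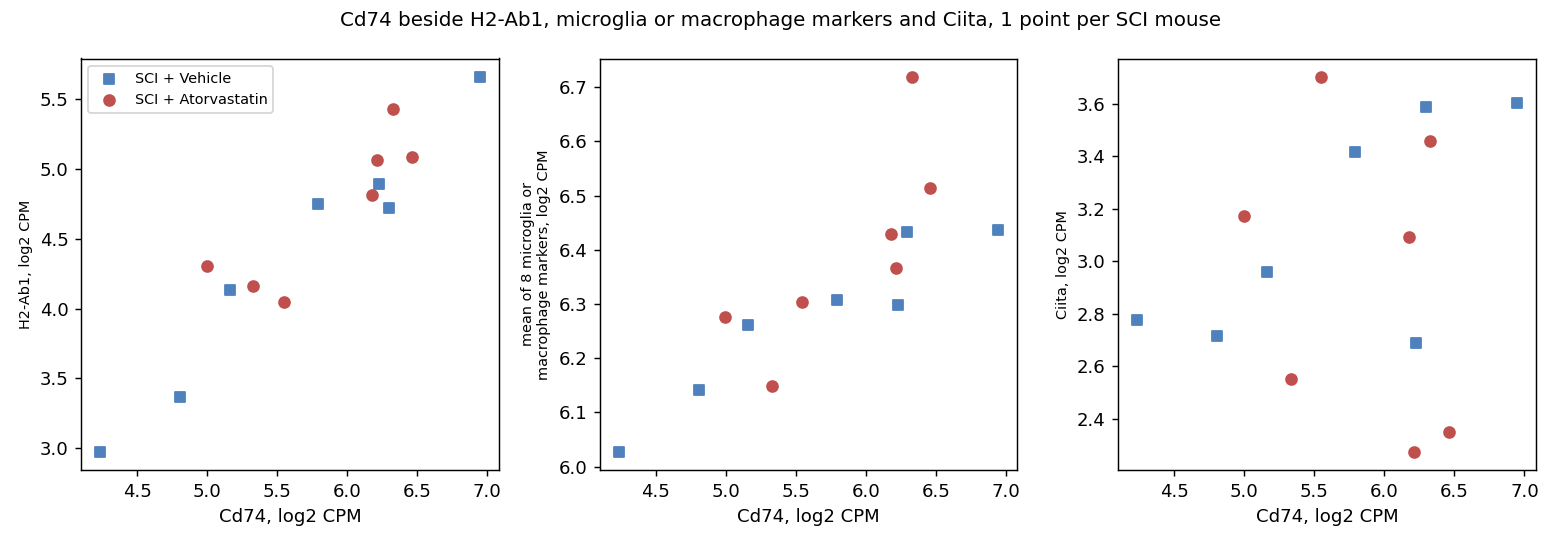
Log2 CPM of Cd74 (x axis) beside H2-Ab1, the mean of 8 microglia or macrophage markers, and Ciita (y axes), with 1 point per SCI mouse and the group by colour and shape. H2-Ab1 (r = 0.948) and the markers (r = 0.810) rise with Cd74 in both groups, and Ciita (r = 0.204) shows no common trend.

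After removal of the group means, the genes most like Cd74 among 13856 genes with at least 10 counts in every SCI mouse again included its partners. H2-Ab1 ranked 1st with r = 0.949, H2-Aa 4th with 0.906 and H2-Eb1 6th with 0.902. The other 7 of the first 10 were Emp1, H3f3b, Twsg1, Ephx1, Hgh1, Arpc5 and Cpxm2, at 0.890 to 0.911. H2-DMb1 came at rank 910 (r = 0.569), Ciita at 3732 (0.238) and H2-DMa at 4857 (0.143). These ranks describe 14 mice and carry no p.

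Beyond the 7, the pathway was followed in 40 further genes in the tables, of which 34 were expressed highly enough to be tested. Compared with the controls, 14 of the 34 were called in SCI + Vehicle (11 higher, 3 lower) and 20 in SCI + Atorvastatin (17 higher, 3 lower), the 14 being among the 20. Of all genes tested, 29.8% were called in SCI + Vehicle (19.9% higher) and 38.9% in SCI + Atorvastatin (24.9% higher). The median log2 fold change of the 34 was 1.05 and 1.14, beside 0.172 and 0.206 over all genes. Of the 34, 6 were at 0 in both controls and were tested only through their level in the SCI mice, which fixed their direction. Among the 6 left out for low level were Ifng, the inducer of Ciita, with at most 11 counts in any mouse, and Cd40, with at most 34. The 6 genes called only with atorvastatin are not thereby shown to differ between treatments, which was tested directly.

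Of 5 genes that process antigen or cut the invariant chain, 3 were called higher in SCI + Vehicle (Ctss, Ctsl and Lgmn). All 5 were in SCI + Atorvastatin, which added Sppl2a and Ifi30. The log2 fold changes of Sppl2a were 0.55 (SE 0.21) in SCI + Vehicle and 0.61 (SE 0.15) in SCI + Atorvastatin. Those of Ifi30 were 2.94 (SE 1.13) and 3.37 (SE 1.13). Ctss, the cathepsin that makes the last cut of the invariant chain, stood at 72.6 and 75.0 CPM in the controls, 647 to 961 in SCI + Vehicle and 717 to 1129 in SCI + Atorvastatin. Its log2 fold change was 3.41 (SE 0.20, adjusted p = 2.01e-05) and 3.60 (SE 0.18, adjusted p = 3.1e-06). For Ctsl the values were 1.16 (SE 0.23) and 1.37 (SE 0.20) and for Lgmn, an endosomal protease, 1.01 (SE 0.12) and 1.07 (SE 0.11), all called. The 2 controls lay close together for Ctss, whereas Ctsl stood at 81.5 and 128 CPM and Ifi30 had 0 counts in one of them.

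Among 3 non-classical chains, H2-DMb2 and H2-Ob were higher in both comparisons from 0 in both controls, though at low levels of 0.658 to 2.87 CPM in the group means, and the H2-DMb2 calls were lost without either control. These 3 chains had 0 counts in both controls and passed the expression filter only through the SCI mice, so higher was the only direction open to them. H2-Ob is part of DO, which restrains DM. Of 7 genes of the promoter complex, Rfxank (log2 fold change -1.48, SE 0.32, and -1.47, SE 0.37) and Rfxap (-1.15, SE 0.15, and -1.16, SE 0.16), both subunits of RFX, were lower in both comparisons. Creb1 was called only in SCI + Atorvastatin, at 0.74 (SE 0.24, edgeR adjusted p = 0.0307), and stood at 0.66 (SE 0.25, adjusted p = 0.0681) in SCI + Vehicle. Of 8 genes of interferon-gamma induction, Irf8 (3.30, SE 1.07, and 3.43, SE 1.05) was higher in both, with 0 Irf8 counts in one control. The Irf8 call in SCI + Vehicle was lost without any single vehicle mouse (adjusted p 0.0562 to 0.0729). Ifngr2, Jak2 and Socs1 were called higher only in SCI + Atorvastatin. In SCI + Vehicle, Ifngr2 stood at 1.09 (edgeR adjusted p = 0.0819), Jak2 at 0.77 (0.0636) and Socs1 at least 7.72-fold higher (0.130). Socs1 had 0 counts in both controls and passed the expression filter only through the SCI mice, so higher was the only direction open to it.

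Of 3 genes of surface turnover, March1, a ligase that removes class II from the surface, was lower (-0.71, SE 0.20, and -0.65, SE 0.18) and its relative March8 higher (0.67, SE 0.18, and 0.67, SE 0.11). The March1 calls were lost without the first control (adjusted p 0.228 and 0.234), as was the March8 call in SCI + Vehicle without the second (0.0595). Of 4 co-stimulation genes, Cd80 and Cd86 were higher in both from 0 in both controls. For Cd86 this was at least 49.9-fold in SCI + Vehicle and 70.8-fold in SCI + Atorvastatin. Both genes passed the expression filter only through the SCI mice, so their direction was fixed by that filter. The Cd80 call in SCI + Vehicle was lost without either control or any single vehicle mouse but replicate 3. Of 4 genes for the ligands and co-receptors of CD74, Cd44 was higher, by 2.63 (SE 0.20) and 2.83 (SE 0.15), while the ligand Mif stood at 72.7 ± 15.03 and 64.6 ± 9.68 CPM (SD, n = 7 each) beside 109 and 62.2 CPM in the controls and was not called.

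Between the treatments 0 of the 34 pathway genes were called (DESeq2, limma and voom also called 0), and 2 had an unadjusted p below 0.05, a share no larger than the 7.03% of all genes. These 2, Cd86 and Ifi30, are given as values only. Cd86 ran from 8.24 over 10.6 to 12.6 CPM in SCI + Atorvastatin and from 4.83 over 7.27 to 10.4 in SCI + Vehicle, a log2 difference of 0.50 (SE 0.19, unadjusted p = 0.0134, adjusted p = 0.680). Ifi30, a reductase that opens disulphide bonds in antigen, ran from 15.2 over 22.6 to 33.7 CPM and from 14.6 over 17.5 to 21.5 CPM, a log2 difference of 0.41 (SE 0.16, unadjusted p = 0.0178, adjusted p = 0.680). Both sets of ranges overlapped. The median log2 difference of the 34 genes was 0.04. Of the markers, the border-associated macrophage list had log2 differences above 0 in 7 of 7 genes (median 0.55) and the microglia or macrophage list in 8 of 8 (median 0.12). The dendritic cell list had them in 5 of 5 genes tested (median 0.28), the monocyte list in 4 of 5 (0.32) and the T cell list in 4 of 5 (0.26). For the B cell list it was 1 of 3 (-0.45), and over all genes 48.7%. None of these marker genes was called. Their part in the class II values was not tested.

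**Figure D5:**
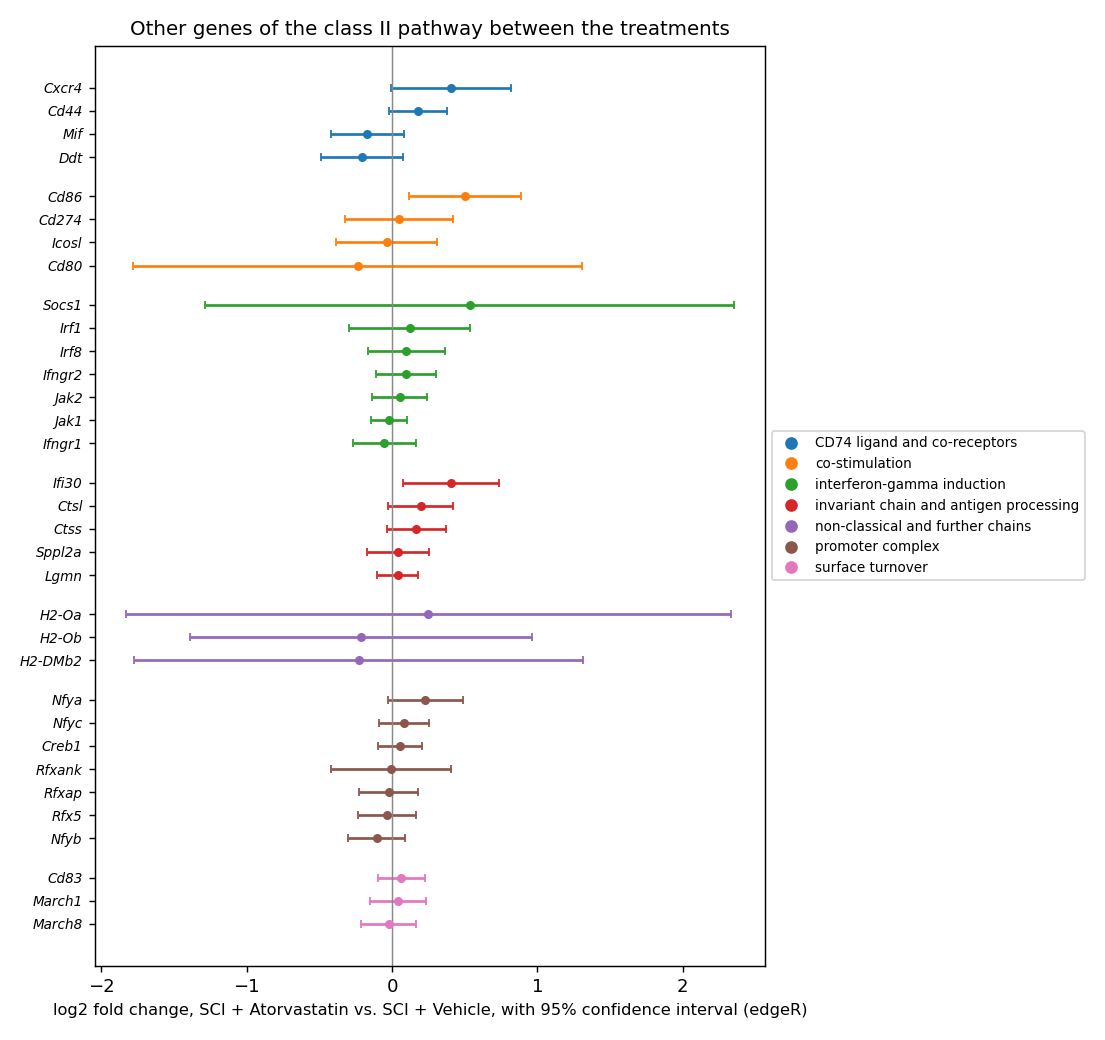
Log2 fold change of SCI + Atorvastatin against SCI + Vehicle (x axis) with 95% confidence intervals from edgeR for 33 genes of the class II pathway other than the core 7, grouped by role and coloured by group. Cd86 and Ifi30 have intervals that do not reach 0, and the low-level genes H2-Oa, H2-Ob, H2-DMb2, Cd80 and Socs1 have the widest.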

How the data were processed

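RNA sequencing of 16 spinal cord samples was analysed, with groups and replicate numbers taken from the sample labels. Reads were trimmed by the authors (Trimmomatic 0.38), placed on mm10 with STAR 2.5.4b and quantified with RSEM 1.3.1, as the submitters' processing notes and the study's methods state. They deposited whole-number counts per gene, without normalization, and TPM, normalized by the authors for gene length and depth. How the whole numbers were made, and whether strand was used, is not given in the sources used here, and neither is an annotation release. RSEM and whole-number counts can share out reads of overlapping or near-identical genes differently.

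The 16091 genes whose mean TPM exceeded 1 in any condition were fitted pairwise in edgeR 4.0.16 (R 4.3.3; TMM, quasi-likelihood test, two-sided, Benjamini-Hochberg adjustment over all of them), with library sizes from the whole tables. CPM are TMM-normalized, and for correlations log2 CPM used a prior count of 1. Correlation tests were two-sided with 1e+05 permutations, exact within groups. A count of 0 was taken to allow 3 counts per library (0.116 to 0.204 CPM), which covers counting error only. Thresholds follow the study, whose tool, DESeq2, was run as an alternative (1.42.0), as was limma 3.58.1. Sequences are RefSeq's on GRCm38.p6, and positions are from the GENCODE annotation of GRCm38. Scripts were tested on simulated data. Plots used matplotlib 3.10.9 (Python 3.11.15).

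All 7 members are named; of the listed pathway and marker genes, those called, those with an unadjusted p below 0.05 between treatments and the 3 most abundant of each list may be named, and the 10 genes most like Cd74. The members and lists were chosen with earlier results of these data known. Other genes (Dexi, Brd2, Ifng, Cd40) and the CREB form were chosen after values or sequences were seen. The Ciita promoter motifs planned (GAS and E-box) were not searched, as no window was at hand. A pathway gene that counts towards the lists is not reported here by itself. No 2 libraries of the same group agreed within sampling noise, and libraries of different groups were not compared in this way. Whether mice shared litters is not stated, and p-values measure the spread between these mice.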

Additional observations from a re-analysis of the deposited data

How the results depend on the processing

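Comparisons with the controls depended on the processing. In SCI + Vehicle, the 2 class II genes called became 1 with a mean TPM above 1 required in every condition. They became 1 with at least 10 counts required in every mouse, and 0 with voom and group weights. With DESeq2, with all 3 groups in 1 fit and with limma on log2(TPM + 1), 3 genes were called, H2-DMa being added. Of the 34 pathway genes 14 were called, but 22 with DESeq2, 22 with all 3 groups in 1 fit, 9 under each stricter filter and 1 with voom. In SCI + Atorvastatin, the 2 became 1 under each stricter filter, 5 with limma on log2(TPM + 1) and 0 with voom. They became 3 with DESeq2 and with all 3 groups in 1 fit, again adding H2-DMa. The 20 pathway genes became 12 and 13 under the filters and 1 with voom. Both stricter filters remove genes at 0 in the controls, such as H2-DMb1, and the cause of the other shifts was not tested. Ciita turned positive against the controls with voom, at 3.28 in SCI + Vehicle and 3.06 in SCI + Atorvastatin.

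Leaving out each mouse in turn gave 2 to 5 class II genes in SCI + Vehicle and 2 to 6 in SCI + Atorvastatin, and every departure from 2 came from leaving out a control. Pathway genes ranged from 12 to 21 and from 16 to 27. Ciita ranged from -1.55 to 10.6 in SCI + Vehicle and from -1.65 to 10.5 in SCI + Atorvastatin, the highest with the remaining control at 0 and so no bound. Between the treatments the count stayed at 0 for the class II genes under every alternative, and was 2 for the pathway at an unadjusted p below 0.05 (Cd86 and Ifi30). Over all alternatives, turning negative when 1 mouse was left out, the log2 difference of Cd74 ran between -0.0914 and 0.340, of H2-Eb1 between -0.0195 and 0.451 and of H2-DMa between -0.0106 and 0.233. The correlations called, 2 of 12, ranged from 1 (without SCI + Atorvastatin replicate 3 or SCI + Vehicle replicate 2, 4, 5 or 7) to 5 (without SCI + Atorvastatin replicate 4 or SCI + Vehicle replicate 3). With log2(TPM + 1), r was -0.0141 for Ciita with H2-DMb1 and -0.0640 for H2-Eb1 with H2-DMb1. With 1 mouse left out, r of Ciita ranged from -0.0781 to 0.511 with H2-DMa and from -0.0167 to 0.268 with H2-DMb1.

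Replicate numbers do not pair the mice, as deviations of same-numbered mice correlated by -0.145 to 0.0846. With the replicate block, 0 class II genes were called in each comparison, 1 pathway gene in SCI + Vehicle and 0 in SCI + Atorvastatin, and Ciita stood at 3.33 and 2.26. Of all values recomputed, 26 single values turned direction. Depth limits H2-DMb2, H2-Oa, Cd80 and Socs1, and 2 controls limit every comparison with uninjured cord.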
